A study of Schizosaccharomyces pombe with 31 samples.

Results

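Gene expression in cells lacking Endosulfine was compared with that in the wild type after 4 h of nitrogen starvation, over all genes measured. The comparison was chosen by strain and time label and holds 6 of the 31 RNAseq libraries of the series, 3 of *igo1*∆ and 3 of the wild type. Both strains are heterothallic fission yeast (*Schizosaccharomyces pombe*) of mating type h-, the wild type being h- 972 and the mutant h- igo1::kanMX6, in which *igo1* is replaced by a kanamycin resistance cassette. The labels call the mutant a knockdown, while its genotype is that of a deletion. Cells growing exponentially in minimal medium (MM) were washed and moved to the same medium without nitrogen (MM-N) at 25 °C. The 6 libraries from MM and the 6 from 1 h in MM-N served to test whether a difference was already there before starvation. The 3 of *ppk18*∆ *cek1*∆ at 4 h, which lack a pair of Greatwall kinases, served to test where the mutants differ. Because all of these strains are h-, no culture holds a mating partner.

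Greatwall kinases phosphorylate Endosulfine, a small protein that then binds and inhibits PP2A with its B55 regulatory subunit (Pab1 in fission yeast), a phosphatase that opposes the cyclin-dependent kinase. When nitrogen runs out, TORC1 activity at first falls and Greatwall is released. Wild type cells divide at a small size, arrest in G1 and either mate or enter quiescence. Ste11, an HMG-box transcription factor, switches on the genes of mating and meiosis under these conditions by binding TR boxes in their promoters.

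Reads counted on genes numbered between 15795456 and 19605557 in the 3 wild type libraries at 4 h and between 15846889 and 18925486 in those of *igo1*∆. The values below are normalized counts, that is, reads per gene divided by the size factor of the library, and fold changes are differences of log2(normalized count + 1) between the group means, which understates the change of weakly expressed genes. Genes were called at an adjusted *p* below 0.05 (limma, Benjamini-Hochberg) in the 6036 of 7001 genes whose normalized count averaged 10 or more. The 10 most abundant genes took 12.8 to 13.8% of the reads in the wild type and 9.40 to 9.75% in *igo1*∆, without overlap. With all libraries brought to an equal total instead, the median of all genes moved from 0.02 to -0.15 on the log2 scale, so small differences depend on the scaling.

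The transcript of the deleted gene was examined first. In the wild type at 4 h *igo1* (SPAC10F6.16) stood at normalized counts of 2638, 2899 and 2598, and in *igo1*∆ at 1507, 1518 and 1563. Its level was thus lower in each of the 3 mutant libraries, by -0.82 on the log2 scale (standard error 0.07, limma, Benjamini-Hochberg adjusted *p* = 6.6e-10), but it was not lost. In MM the values were 3009 to 3317 in the wild type and 1948 to 2202 in *igo1*∆. The annotated exons of the gene span 1181 bases, of which 420 are coding, and reads on the flanking parts are counted for the gene, so this count does not check the deletion. In *ppk18*∆ *cek1*∆ at 4 h *igo1* stood at 3984 to 4633, and the difference of *igo1*∆ from it was -1.51 on the log2 scale (limma, Benjamini-Hochberg adjusted *p* = 1.7e-12).

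Most genes tested differed between starved *igo1*∆ and wild type cells. The paper reports that *igo1*∆ arrests mainly in G2 without nitrogen, whereas the wild type arrests in G1. From blots, it also reports TORC1 reactivated and Greatwall inactivated in the wild type at 4 h, with the TORC1 reactivation delayed in *igo1*∆. Strain, cell cycle position and TORC1 activity therefore cannot be told apart in these libraries. At 4 h, 4536 of the 6036 genes were called, 75.1% of all genes tested, of which 2341 (38.8%) were higher and 2195 (36.4%) lower in *igo1*∆. At equal library totals, 1714 were higher and 2814 lower. The difference exceeded 2-fold in 684 genes upwards and 398 downwards. In 4820 genes (79.9%) the 3 libraries of a strain did not overlap the 3 of the other. Before starvation the strains were far closer, with 130 genes called in MM (2.15%), and after 1 h in MM-N 3775 were called. A test of the difference of differences from MM to 4 h called 3879 genes (64.3%), and that from 1 h to 4 h called 3339 (55.3%). Members of the lists below are to be read against these shares, since a gene drawn from the whole table was called in 3 of 4 cases.

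**Figure D1:**
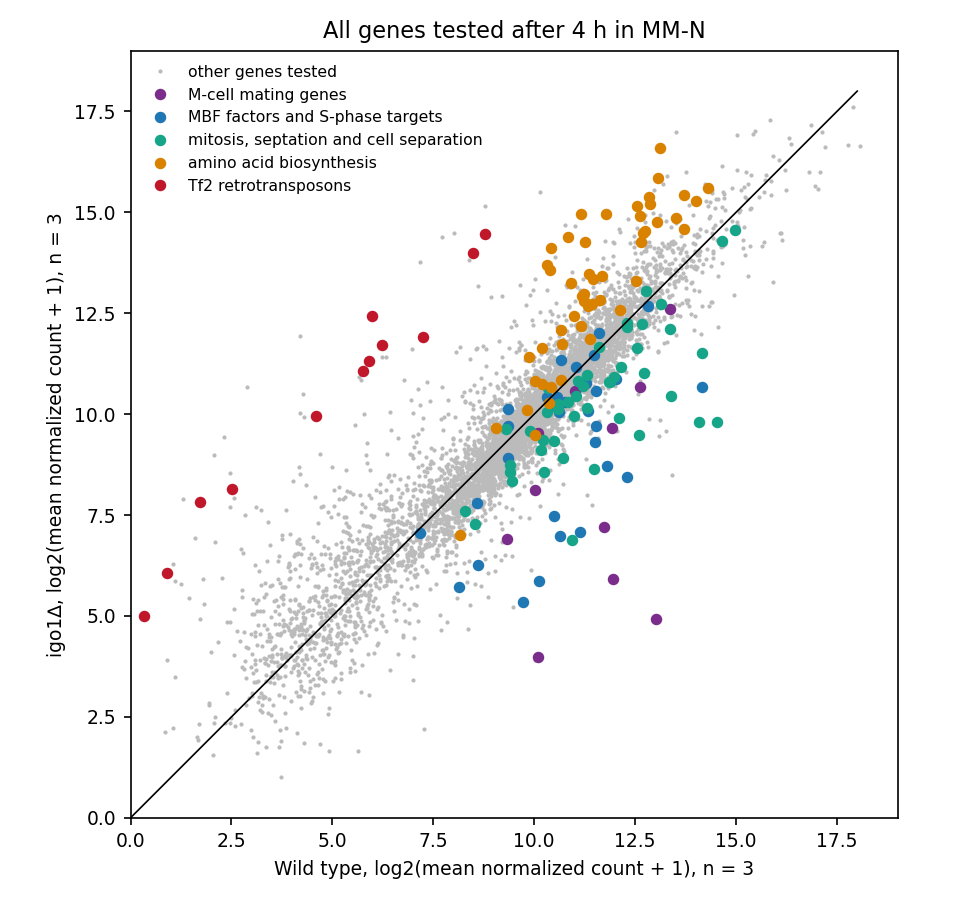
Level of each gene tested after 4 h in MM-N, as log2(mean normalized count + 1) of 3 libraries, in the wild type (x axis) and in *igo1*∆ (y axis); the line marks equal levels. M-cell mating genes, S-phase genes and cell separation genes lie mostly below the line, and amino acid biosynthesis genes and Tf2 retrotransposons above it.

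The largest falls were in mating genes. All 12 tested genes of the M-cell list (M-factor precursors, their processing and export, and the P-factor receptor) were lower in *igo1*∆, with no overlap between the strains and a median of -2.11 on the log2 scale, against 0.02 over all genes tested. Among the coding genes, *mfm1*, one of the genes for the M-factor pheromone, had the largest fall of the comparison. The normalized counts were 10737, 6727 and 7450 in the wild type and 18.03, 9.24 and 61.4 in *igo1*∆ (log2 change -8.47, standard error 0.42, limma, Benjamini-Hochberg adjusted *p* = 1.8e-14). In MM the gene stood at 63.5 to 118 in the wild type and 15.4 to 25.0 in *igo1*∆, and from MM to 4 h the log2 change was 6.58 for the wild type and 0.10 for the mutant. In RNA of a whole culture, fewer cells of a kind and less RNA per cell cannot be told apart. The other M-factor genes *mfm3* (1426, 894 and 952 against 14.0, 15.7 and 14.5) and *mfm2* (3684, 3333 and 3175 against 221, 101 and 121) fell by 6.08 and 4.60. These short genes code for related precursors, and *mfm3* overlaps a gene on the opposite strand.

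Beyond the pheromone genes, *mam2*, the receptor for the P-factor of the other mating type, stood at 4863, 3432 and 3496 in the wild type and 57.1, 46.2 and 76.0 in *igo1*∆ (log2 change -6.03, limma, Benjamini-Hochberg adjusted *p* = 3.1e-19). The genes for the adhesion protein Mam3 (-2.27), the M-factor methyltransferase Mam4 (-2.39), the M-factor exporter Mam1 (-1.95) and the P-factor-degrading carboxypeptidase Sxa2 (-1.87) were lower by smaller amounts. The difference for each of the 12 genes was larger at 4 h than in MM by the interaction test. Of the 6 tested genes named for the other mating type, P, *map1* was lower (309, 254 and 244 against 45.1, 41.6 and 40.2, log2 change -2.64) and *map3*, the M-factor receptor, fell by 0.83. The P-factor gene *map2* was at 18.5 to 35.1 in the wild type and 42.1 to 50.8 in *igo1*∆ (log2 change 0.88, not called under quantile normalization, 0.44).

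In the pheromone cascade, 10 of 16 genes were lower and 5 higher. The guanine nucleotide exchange factor of Ras1, *ste6*, went from 1195, 898 and 1037 to 12.02, 7.39 and 22.3 (log2 change -6.25). Next came *rgs1*, which turns G-protein signalling off (-3.73), *spk1*, the MAP kinase at the end of the cascade (-3.70), its upstream adaptor *ste4* (-2.97), the G-protein alpha subunit gene *gpa1* (-1.83) and the kinase gene *byr2* (-1.17). The G-protein beta-like gene *gnr1*, known as a negative regulator of the response, was higher by 2.17 (216, 191 and 210 against 842, 936 and 1023), and *ras1* and *byr1* were higher by 0.88 and 0.71. Most of these genes, *ste6* and *gnr1* among them, overlap a gene on the opposite strand, and the strand setting of the counting is not given in the sources used here.

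Regulators of sexual differentiation split into both directions, with 5 of 22 lower and 9 higher, so that the list as a whole did not move in one direction. *mei2*, which encodes the RNA-binding protein that starts meiosis, was at 13124, 8564 and 10911 in the wild type and 491, 239 and 353 in *igo1*∆ (log2 change -4.95, standard error 0.39, limma, Benjamini-Hochberg adjusted *p* = 1.0e-10). For *ste11* the values were 3107, 2049 and 2302 against 574, 426 and 428 (log2 change -2.37, adjusted *p* = 1.1e-06 in the same test). Its level in MM was 558 to 847 in the wild type and 582 to 644 in *igo1*∆, and at 1 h it had not been called as different. *ste7* (-1.80) and *msa1* (-1.30, not called without the second *igo1*∆ library) were also lower. Higher in *igo1*∆ were the kinase gene *pat1*, an inhibitor of meiosis (adjusted *p* = 0.024, limma with Benjamini-Hochberg, and above 0.05 without the second or the third wild type library or the first or the third *igo1*∆ library), and upstream regulators such as *rst2* (0.88) and *pac2* (0.90). *mei3* had the largest rise of the list (log2 change 2.52), with low counts of 2.93 to 6.51 in the wild type and 24.0 to 31.3 in *igo1*∆. *mei4* was not called (-0.18). Of 23 genes of mid-meiosis and sporulation, 5 were higher and 8 lower, with a median of -0.03. Genes named for higher expression in meiosis (*mug* and *meu*) showed no common direction, with 29 of 102 higher, 43 lower and a median of -0.17.

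Promoter sequences were searched for the TR box. The window from 250 bases before to 50 bases after the annotated start was read for 4990 tested coding genes, from RefSeq ASM294v3, and its core letters TTCTTTGTT were searched on both strands. They were present in 1.94% of all these windows, in 5.21% of the 307 genes with a log2 change below -1 in *igo1*∆, in 15.5% of the 71 genes lower by more than 2, and in 1.02% of the 393 genes higher by more than 1. Among the pheromone cascade genes 5 of 16 windows held the letters, and among the M-cell genes 3 of 12, or 3 and 1 on the strand of the gene alone. In the list of sexual differentiation, which had no common direction, 5 of 22 held them. The stretches below show the core in capitals, read 5′ to 3′ on the strand of each gene and ending before its annotated start. They are examples chosen among genes with large falls whose windows hold the core, and *ste11* is shown because its product binds such sites. The windows of *mam2* and *mfm2*, which fell more than *rgs1* and *spk1*, do not hold the core. Where the capitals read AACAAAGAA, the core lies on the other strand.
*mfm1*, chromosome I, bases -99 to -51: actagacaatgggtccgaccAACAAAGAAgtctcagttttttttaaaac
*mei2*, chromosome I, bases -180 to -110: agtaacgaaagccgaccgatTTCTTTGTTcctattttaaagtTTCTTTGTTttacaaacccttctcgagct
*rgs1*, chromosome I, bases -207 to -57: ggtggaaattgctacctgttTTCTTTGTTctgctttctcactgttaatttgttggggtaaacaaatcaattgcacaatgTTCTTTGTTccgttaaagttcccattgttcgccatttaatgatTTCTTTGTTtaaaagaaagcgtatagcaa
*spk1*, chromosome I, bases -207 to -22: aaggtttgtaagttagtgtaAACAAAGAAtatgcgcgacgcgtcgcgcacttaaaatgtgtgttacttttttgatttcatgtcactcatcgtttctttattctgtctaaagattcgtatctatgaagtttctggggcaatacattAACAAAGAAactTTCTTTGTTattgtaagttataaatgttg
*ste11*, chromosome II, bases -147 to -99: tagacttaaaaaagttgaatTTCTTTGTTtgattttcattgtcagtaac
The window of *mei2* holds 2 cores in the stretch shown, and those of *rgs1* and *spk1* hold 3 each. A match is a description of the letters and not evidence of binding, and *gnr1*, which was higher, has a match too.

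Genes of DNA replication formed the second group of falls. MBF is the transcription factor complex that switches on S-phase genes, through the MCB element in their promoters. Of 32 genes of MBF and its targets, 24 were lower in *igo1*∆ and 6 higher, with a median of -0.89, and 15 were lower by more than 1. *cdt1*, needed to load the replicative helicase, was at 776, 892 and 883 in the wild type and 30.05, 38.8 and 49.2 in *igo1*∆ (log2 change -4.42, standard error 0.11, limma, Benjamini-Hochberg adjusted *p* = 3.0e-20). Its partner *cdc18* was at 1939, 2265 and 2580 against 129, 147 and 125 (log2 change -4.06), and the dUTPase gene *dut1* at 1037, 1190 and 1090 against 62.1, 58.2 and 50.3 (-4.26). *tos4* (-3.86), *cdt2* (-3.71), *cdc22*, the large subunit of ribonucleotide reductase (-3.49), and *ams2*, a regulator of histone genes (-3.08), were lower as well. The repressor genes *yox1* (-2.33) and *nrm1* (-0.14, not called without the first wild type library) were also lower, and the MBF subunit gene *res1* was higher by 0.79.

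The time course was followed for *cdc18*. Its level rose between MM and 1 h in both strains, from 942 to 1108 up to 6399 to 6558 in the wild type and from 978 to 1066 up to 3047 to 3496 in *igo1*∆. By 4 h it was still above its MM level in the wild type, and in *igo1*∆ it was below it. The strain difference grew from -1.01 at 1 h to -4.06 at 4 h (interaction of -3.05, limma, Benjamini-Hochberg adjusted *p* = 6.8e-15).

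**Figure D2:**
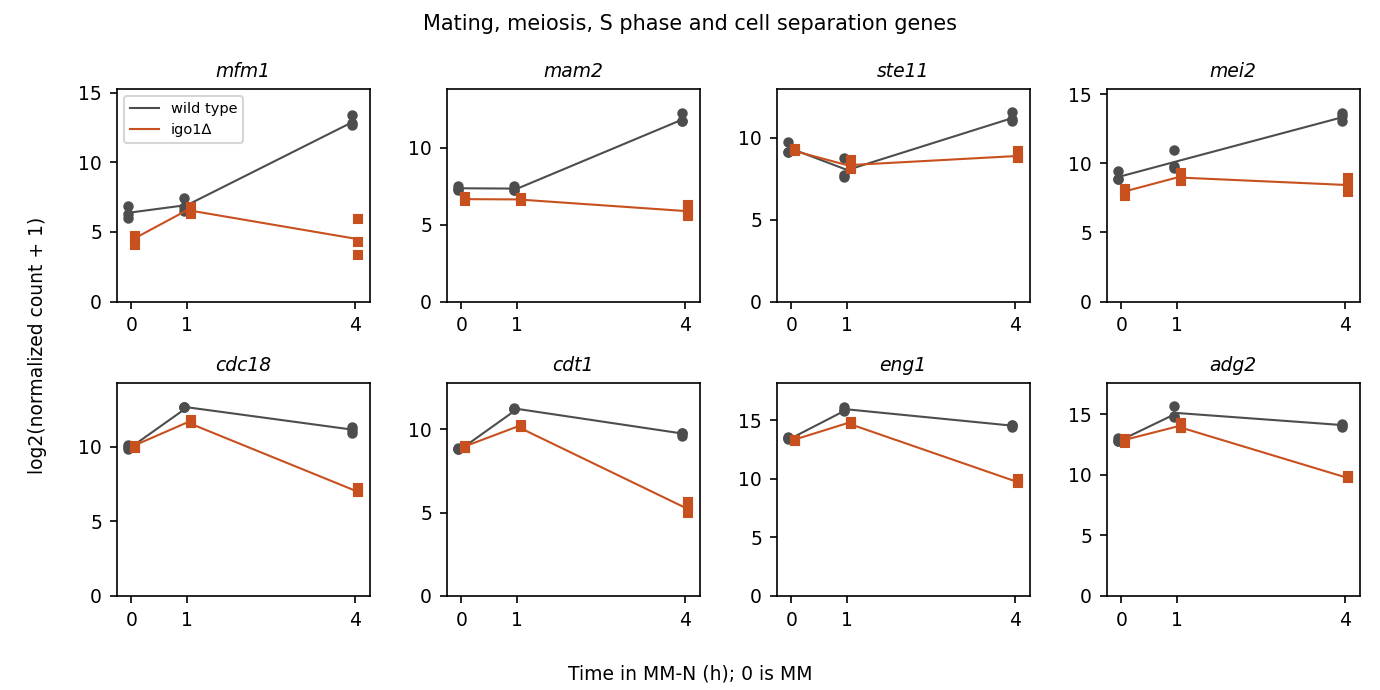
Time course of 8 genes with lower expression in *igo1*∆ at 4 h, as log2(normalized count + 1) against hours in MM-N (0 is MM), each symbol being 1 library and each line the mean of 3. In *mfm1*, *mam2*, *ste11* and *mei2* the wild type rises by 4 h and *igo1*∆ does not, whereas *cdc18*, *cdt1* and *eng1* rise in both strains at 1 h and then fall further in *igo1*∆.

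The MCB element, searched as ACGCGT, which is its own reverse complement, was found in 3.29% of all windows, in 7.49% of the genes lower by more than 1, in 14.1% of those lower by more than 2 and in 1.53% of those higher by more than 1. Of the 32 genes of the MBF list 10 held it. The stretches below, with the element in capitals, are examples from promoters that hold it, of genes with large falls. The windows of *cdc18* and *dut1* do not hold it, and those of *pas1* and *lys12*, which were higher in *igo1*∆, do.
*cdt1*, chromosome II, bases -97 to -52: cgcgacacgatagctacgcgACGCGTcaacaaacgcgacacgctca
*cdt2*, chromosome I, bases -142 to -25: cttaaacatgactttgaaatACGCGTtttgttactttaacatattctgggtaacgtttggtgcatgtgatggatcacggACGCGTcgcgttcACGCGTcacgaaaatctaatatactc
*cdc22*, chromosome I, bases -82 to -27: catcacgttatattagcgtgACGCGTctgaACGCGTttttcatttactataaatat
*tos4*, chromosome I, bases -99 to -54: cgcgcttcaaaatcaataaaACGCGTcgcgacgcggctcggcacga
The S-phase cyclin gene *cig2* fell by 3.02 (1546, 1291 and 1490 against 190, 166 and 174) and *mik1*, whose product inhibits Cdc2, by 2.44.

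Among the regulators of the cyclin-dependent kinase, 10 of 23 genes were lower and 4 higher, or 16 and 4 at equal library totals. *rum1*, the inhibitor that holds Cdc2 in check in G1, was at 1764, 1553 and 1632 in the wild type and 610, 591 and 597 in *igo1*∆ (log2 change -1.46). *srw1* (*ste9*), which directs mitotic cyclins to degradation in G1, fell by 1.66, and *slp1*, the activator of the anaphase-promoting complex in mitosis, by 2.21. The mitotic genes *plo1* (-1.17), *cdc25* (-1.10) and *cdc13* (-0.69) fell too, and the level of *cdc2* was 0.63 higher. The cyclin gene *pas1* rose by 1.83 (4001, 3245 and 3441 against 13469, 11693 and 12772). Of 11 histone genes 7 were lower, with *hta2* (-1.43) and *hhf1* (-1.08) the largest falls, and *hht3* and *hhf3* were higher by 0.49 and 0.52. Histone genes code for near-identical proteins, so reads may be shared among them.

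Genes of mitosis and cell separation were lower almost throughout, 41 of 46 being called lower and 3 higher with a median of -0.88. The gene *eng1*, whose endo-glucanase helps to dissolve the septum between daughter cells, was at 21313, 23954 and 24966 in the wild type and 990, 798 and 895 in *igo1*∆ (log2 change -4.71, standard error 0.12, limma, Benjamini-Hochberg adjusted *p* = 3.1e-20). The alpha-glucanase gene *agn1* fell by 3.11, and changes of -2.83, -4.28 and -2.66 were measured for *adg1*, *adg2* and *adg3*. *cfh4*, a regulator of chitin synthase, fell by 2.94 and the ring protein gene *cdc15* by 1.69. At equal library totals, 42 of the 46 were lower and 0 higher. The forkhead element GTAAACA, searched on both strands, was found in 16.3% of all windows, 92 of the 307 genes lower by more than 1 and 25 of the 46 genes of this list.

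**Figure D3:**
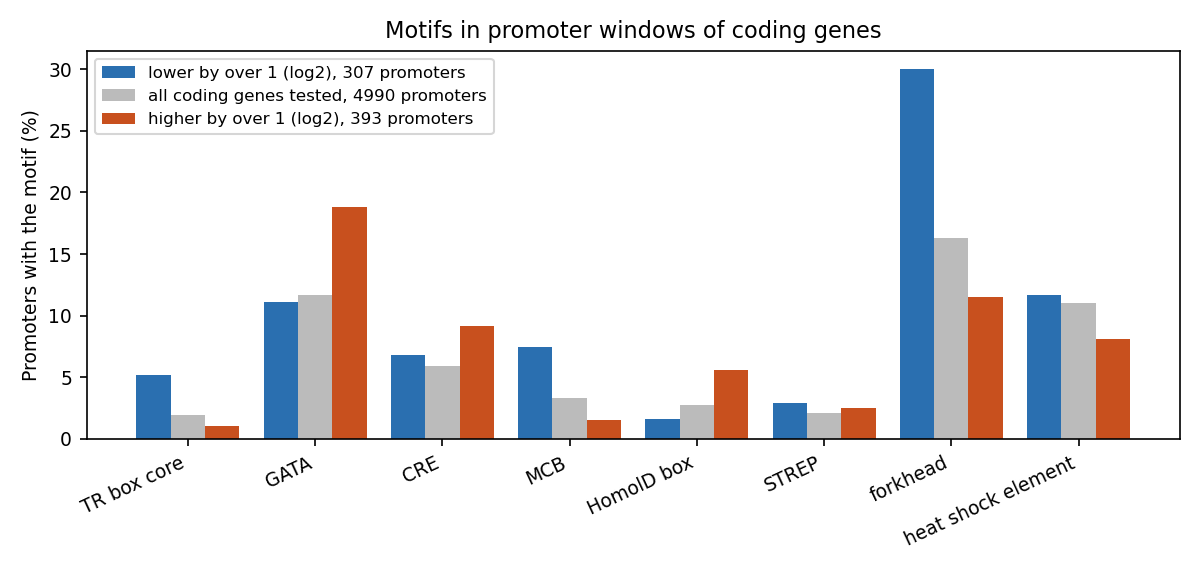
Percent of promoter windows (300 bases) that hold each motif on either strand, for the 307 coding genes with a log2 change below -1 in *igo1*∆, all 4990 tested, and the 393 higher by more than 1. The TR box core (5.21, 1.94 and 1.02%), MCB (7.49, 3.29 and 1.53%) and forkhead element (92 of 307, 16.3% and 11.5%) follow one order, and GATA (11.1, 11.7 and 18.8%) another.

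In the opposite direction, amino acid biosynthesis stood out. Of 50 genes, 47 were higher in *igo1*∆ and 2 lower, with a median of 1.56 on the log2 scale, and 37 were higher by more than 1. The first enzyme of lysine synthesis, homocitrate synthase (*lys4*), was at 2293, 2313 and 2306 in the wild type and 29718, 33308 and 32282 in *igo1*∆ (log2 change 3.78, standard error 0.06, limma, Benjamini-Hochberg adjusted *p* = 2.8e-23). Aspartate kinase (*hom3*) was at 1334, 1371 and 1386 against 16869, 17819 and 18627 (log2 change 3.70), and phosphoglycerate dehydrogenase of serine synthesis (*ser3*) at 1818, 1891 and 1784 against 19820, 22973 and 21365 (3.54). Next were *leu3*, the first committed step of leucine synthesis (3.48), *hom2* (3.38), the branched-chain aminotransferase gene *eca39* (3.18), *lys12* (3.17), *lys3* (3.00), *leu2* (2.80) and the asparagine synthetase gene *asn1* (2.34). Histidine and tryptophan genes were higher by less, such as *his4* (2.35) and *trp1* (2.12). The exceptions were *lys7* (-1.16), *cys12* (-0.54) and *trp4*, which was not called.

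Over the time course, the strains moved apart. In MM this list had a median strain difference of 0.05, and none of its genes was called, against 2.15% of all genes tested. Starvation lowered its median by 1.37 in the wild type between MM and 4 h, while in *igo1*∆ the median rose by 0.34, and 47 of the 50 genes had a higher and 2 a lower response in *igo1*∆ by the interaction test. *lys4* stood at 15299 to 17318 in MM, 4177 to 4469 at 1 h and 2293 to 2313 at 4 h in the wild type, and at 16186 to 16797, 16924 to 18542 and 29718 to 33308 in *igo1*∆. The strain difference at 1 h was smaller than at 4 h (2.05 and 3.78, interaction limma, Benjamini-Hochberg adjusted *p* = 2.1e-13). *gcn2*, the kinase that senses uncharged tRNA and slows translation, was higher by 1.77 (3891, 4035 and 3863 against 12309, 14428 and 13673). The letters TGACTC, the Gcn4 site of budding yeast, which were added after the values were seen, lay in 2 of the 50 windows of the list and in 6.81% of all windows.

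Genes for ammonium uptake and its assimilation changed in both directions. Of 21 genes 11 were higher and 8 lower, with a median of 0.25, against 9 and 9 at equal library totals and 8 and 10 (median of -0.15) under quantile normalization. All 3 ammonium transporter genes were higher: *amt3* was at 68.3, 73.2 and 79.0 in the wild type and 2516, 2804 and 2857 in *igo1*∆ (log2 change 5.19, limma, Benjamini-Hochberg adjusted *p* = 5.9e-17), *amt2* was higher by 2.25 and *amt1* by 1.00. The enzymes that fix ammonium, glutamate dehydrogenase (*gdh1*, 8712, 9922 and 9224 against 50972, 55519 and 52226) and glutamate synthase (*glt1*), were higher by 2.51 and 1.87. In contrast, the GABA aminotransferase gene *uga1* fell by 2.18 (2728, 3263 and 3209 against 650, 631 and 751).

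Permeases for organic nitrogen were examined next. *isp5*, an amino acid permease induced by starvation, was at 36992, 41997 and 41053 against 13108, 8404 and 11106 (log2 change -1.90), the oligopeptide transporter gene *isp4* fell by 1.83 and the peptide transporter gene *ptr2* by 1.57. All 3 had risen strongly from MM in both strains, by 4.05 for *isp4* in *igo1*∆ against 4.11 in the wild type, and the difference was there in MM (-1.78 for *isp4*), so that the interaction from MM to 4 h was not called for *isp4* or *ptr2*. The transporter genes *cat1* (2.29), *aat1* (1.90) and *avt5* (2.02), and *stm1* (1.70), which codes for a vacuolar membrane protein, were higher in *igo1*∆. Of 18 transport genes 9 were higher and 6 lower, or 8 and 8 at equal library totals. The GATA element GATAAG lay in 7 of 21 windows of the ammonium list, 8 of 18 of the transport list, 18.8% of the genes higher by more than 1 and 11.7% of all windows.

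**Figure D4:**
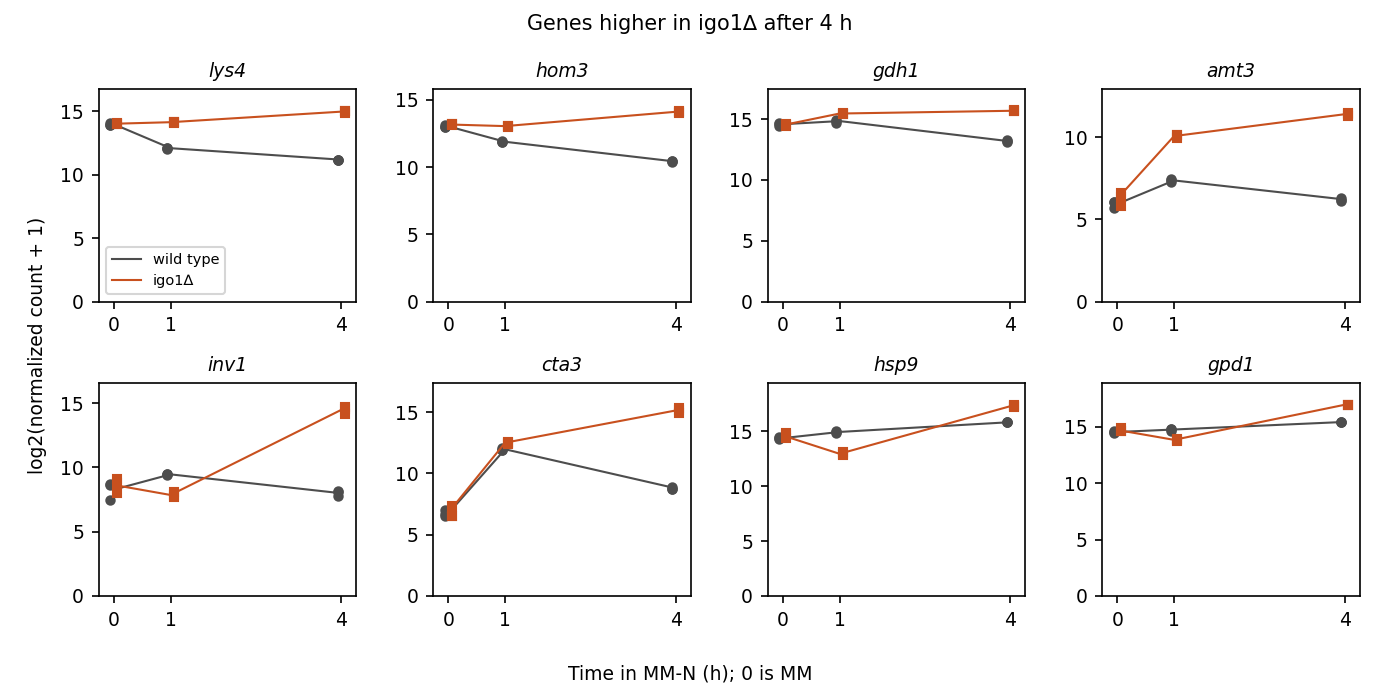
Time course of 8 genes with higher expression in *igo1*∆ at 4 h, as log2(normalized count + 1) against hours in MM-N (0 is MM), each symbol being 1 library and each line the mean of 3. *lys4* and *hom3* fall in the wild type and not in *igo1*∆, while *inv1*, *hsp9* and *gpd1* are below the wild type at 1 h and above it at 4 h.

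Ribosomal protein genes were higher by a smaller and more even amount. In *igo1*∆, 75 of 85 genes of the large subunit were higher and 1 lower (median of 0.73), and 51 of 55 genes of the small subunit were higher and 0 lower (median of 0.64; 51 by edgeR and DESeq2). At equal library totals the counts were 64 and 3, and 48 and 4. These genes fell in both strains during starvation, with medians of -3.38 in the wild type and -2.80 in *igo1*∆ for the large subunit and -3.40 and -2.72 for the small one, so the fall was less deep in *igo1*∆. The largest differences were those of *rpl402* (2704, 3004 and 2737 against 8111, 8193 and 8264, log2 change 1.54) and *rpp102* (1.49). Many of these genes have a near-identical copy that may share reads. The HomolD box CAGTCACA, known from ribosomal protein promoters, was found in 54 of 85 and 34 of 55 windows and in 2.75% of all windows. Genes of ribosome biogenesis did not follow, with 37 of 87 higher and 24 lower, or 26 and 37 at equal library totals.

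Genes for protein breakdown were lower. Of 37 proteasome genes 34 were lower and 2 higher (median of -0.49), with the largest falls in *rpn1302* (-1.14), *rpt3* (-0.99) and *rpn11* (-0.94), and the level of 7 of 8 vacuolar protease genes was lower with a median of -0.68. The serine protease gene *isp6* was at 264323, 275652 and 278503 in the wild type and 109582, 98100 and 97125 in *igo1*∆ (log2 change -1.43). It had risen in both strains, by 5.21 from MM in the wild type and 4.15 in *igo1*∆. The protease gene *psp3* fell by 1.04, while carboxypeptidase *cpy1* was not called (-0.15). Among 28 autophagy genes 20 were lower and 3 higher, with *atg22* (-1.08) and *atg1801* (-1.06) the only members past 1.

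Carbon metabolism changed in both directions. Of 24 genes of glycolysis and fermentation 16 were lower and 5 higher. The glyceraldehyde-3-phosphate dehydrogenase gene *gpd3* was at 62021, 60957 and 62151 in the wild type and 11902, 8724 and 8937 in *igo1*∆ (log2 change -2.66, limma, Benjamini-Hochberg adjusted *p* = 1.4e-11), and hexokinase *hxk2* (-1.64), *pgk1* (-1.63), pyruvate decarboxylase *pdc101* (-1.47) and *gpm1* (-1.45) were lower. Higher were the alcohol dehydrogenase gene *adh4* (3.06) and the glycerol-3-phosphate dehydrogenase genes *gpd2* (2.54) and *gpd1* (1.52). The invertase gene *inv1*, whose enzyme splits sucrose and which glucose represses, was at 283, 214 and 268 against 18620, 26166 and 24205 (log2 change 6.48, standard error 0.29, limma, Benjamini-Hochberg adjusted *p* = 2.9e-15). At 1 h it had been lower in *igo1*∆, at 201.2 to 268 against 683 to 723. Among the hexose transporters the glucose transporter gene *ght5* was lower (9698, 5813 and 6311 against 3359, 1407 and 1521, log2 change -1.88), and *ght2* (1.93) and *ght7* (2.76) were higher.

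A turn of direction between 1 h and 4 h was counted next. Over all genes tested, 279 (4.62%) were called lower in *igo1*∆ at 1 h and higher at 4 h with a called interaction, and 188 (3.11%) the reverse. Turns were not counted again at equal library totals, and their balance may depend on the scaling. The interaction from 1 h to 4 h was upwards in 1773 genes and downwards in 1566, against 1210 and 2141 at equal totals. Of the 30 genes of the Sty1-Atf1 stress pathway and trehalose metabolism, 10 turned from lower to higher and 1 from higher to lower, and of 14 genes of cAMP and PKA signalling and 25 TORC genes 4 each turned from lower to higher and 0 the other way. *hsp9*, a small heat shock protein gene, was at 7379 to 8934 in *igo1*∆ against 30129 to 32780 in the wild type at 1 h (log2 change -1.99), and at 149058, 171420 and 161198 against 57488, 58320 and 59908 at 4 h (1.45, interaction limma, Benjamini-Hochberg adjusted *p* = 5.8e-13). The glutathione peroxidase gene *gpx1* moved from -1.44 to 1.28, the catalase gene *ctt1* from -1.65 to 0.76 and the metallothionein gene *zym1* from -1.40 to 0.89. Other stress genes did not turn: the cation ATPase gene *cta3* was at 484, 425 and 417 against 41227, 36428 and 31166 at 4 h (log2 change 6.35), the sulfiredoxin gene *srx1* was higher by 2.14, and the eIF2-alpha kinase gene *hri1* was lower at both times (-2.07 and -1.59). In total, 16 of the 30 were higher at 4 h and 7 lower, against 11 and 12 at equal library totals. Of 30 chaperone genes 15 were lower, among them *hsp90* (15860, 16001 and 15465 against 4525, 4202 and 4198, log2 change -1.87), *ssa1* (-1.83), *ssa2* (-1.67) and *hsp104* (-1.52), and 8 were higher, including *mge1* (1.61).

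Tf2 retrotransposons were higher in every copy tested, 12 of 12, with a median of 5.45. The copy *Tf2-7* was at 301, 360 and 418 in the wild type and 12496, 19318 and 16630 in *igo1*∆ (log2 change 5.47, limma, Benjamini-Hochberg adjusted *p* = 9.5e-19). It was already higher at 1 h, at 2631 to 3163 against 567 to 641, and in MM the libraries stood at 321 to 399 against 235 to 320. Of the 12 copies 2 were called in MM. The copies are near-identical in sequence, so how reads were shared among them sets each copy's value, and the 12 are not independent.

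Other coding genes with large rises are known less well. *SPAC977.15*, annotated in RefSeq as a dienelactone hydrolase family member, was at 14.6, 17.1 and 20.1 in the wild type and 3452, 3833 and 4378 in *igo1*∆ (log2 change 7.74, limma, Benjamini-Hochberg adjusted *p* = 3.2e-19), the largest rise among the coding genes named by the rule. The transporter gene *SPBC1348.05* was at 3.90, 3.26 and 4.83 against 565, 731 and 759, and the methyltransferase gene *SPCC70.08c* at 166, 236 and 230 against 19988, 21804 and 22674 (6.68). The isomerase gene *SPAC186.06* (0.806 to 1.95 against 197 to 285) and *SPAC9G1.14* (1.61 to 7.32 against 213 to 267) rested on few reads in the wild type, so the size of their change depends on the pseudocount. In iron metabolism the heme uptake gene *shu1* rose from 12.7, 22.0 and 16.1 to 264, 509 and 465 (log2 change 4.51), and *tgp1*, a glycerophosphodiester transporter gene, fell from 9131, 8572 and 8603 to 825, 627 and 655 (-3.65). The uncharacterized gene *SPBC2A9.14* fell from 146, 163 and 147 to 7.01, 2.77 and 1.12.

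The non-coding RNAs tested were more often higher than lower. Of 929 long non-coding RNAs tested, out of 1387, 427 (46.0%) were higher and 183 (19.7%) lower, with a median of 0.36. Among 4990 coding genes tested, out of 5111, 1856 (37.2%) were higher and 2004 (40.2%) lower, with a median of -0.02. A weak RNA could pass the filter on the mean through the groups where it was high, so these shares depend on the filter. They were not counted again at equal library totals. *SPNCRNA.1287* was at 3.90, 8.14 and 7.25 in the wild type and 1269, 1725 and 1918 in *igo1*∆ (log2 change 7.81, limma, Benjamini-Hochberg adjusted *p* = 4.8e-20), and *SPNCRNA.863* at 145, 143 and 143 against 11076, 14949 and 15929 (6.58). *SPNCRNA.1294* was higher by 6.93. The largest falls were those of *SPNCRNA.1278* (622, 784 and 737 against 42.1, 30.5 and 35.8, log2 change -4.27), *SPNCRNA.1069* (-3.71) and *SPNCRNA.1246* (-3.61). Several of them overlap a gene on the opposite strand, as *SPNCRNA.1069* does over 2169 bases. Of 32 small nucleolar RNAs tested, out of 61, 25 (78.1%) were higher and 1 lower, against 38.8% and 36.4% of all genes tested.

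Of 12 genes of Greatwall, Endosulfine and PP2A 3 were higher and 6 lower. The B55 subunit gene *pab1* fell by 0.18 and the scaffold gene *paa1* by 0.71 (4896, 5068 and 5014 against 3103, 3044 and 3019), while *par2*, a B56 regulatory subunit gene, fell by 1.06. *ppk18*, which encodes the main Greatwall kinase, was higher by 0.58 (4736, 4771 and 4893 against 7083, 7123 and 7275), and *cek1* (0.28) and *ppk31* (0.40) were not called. Of 25 TORC genes 11 were higher and 7 lower, with *gcn2* the only change past 1, against 4 and 11 at equal library totals and 7 and 12 under quantile normalization.

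**Figure D5:**
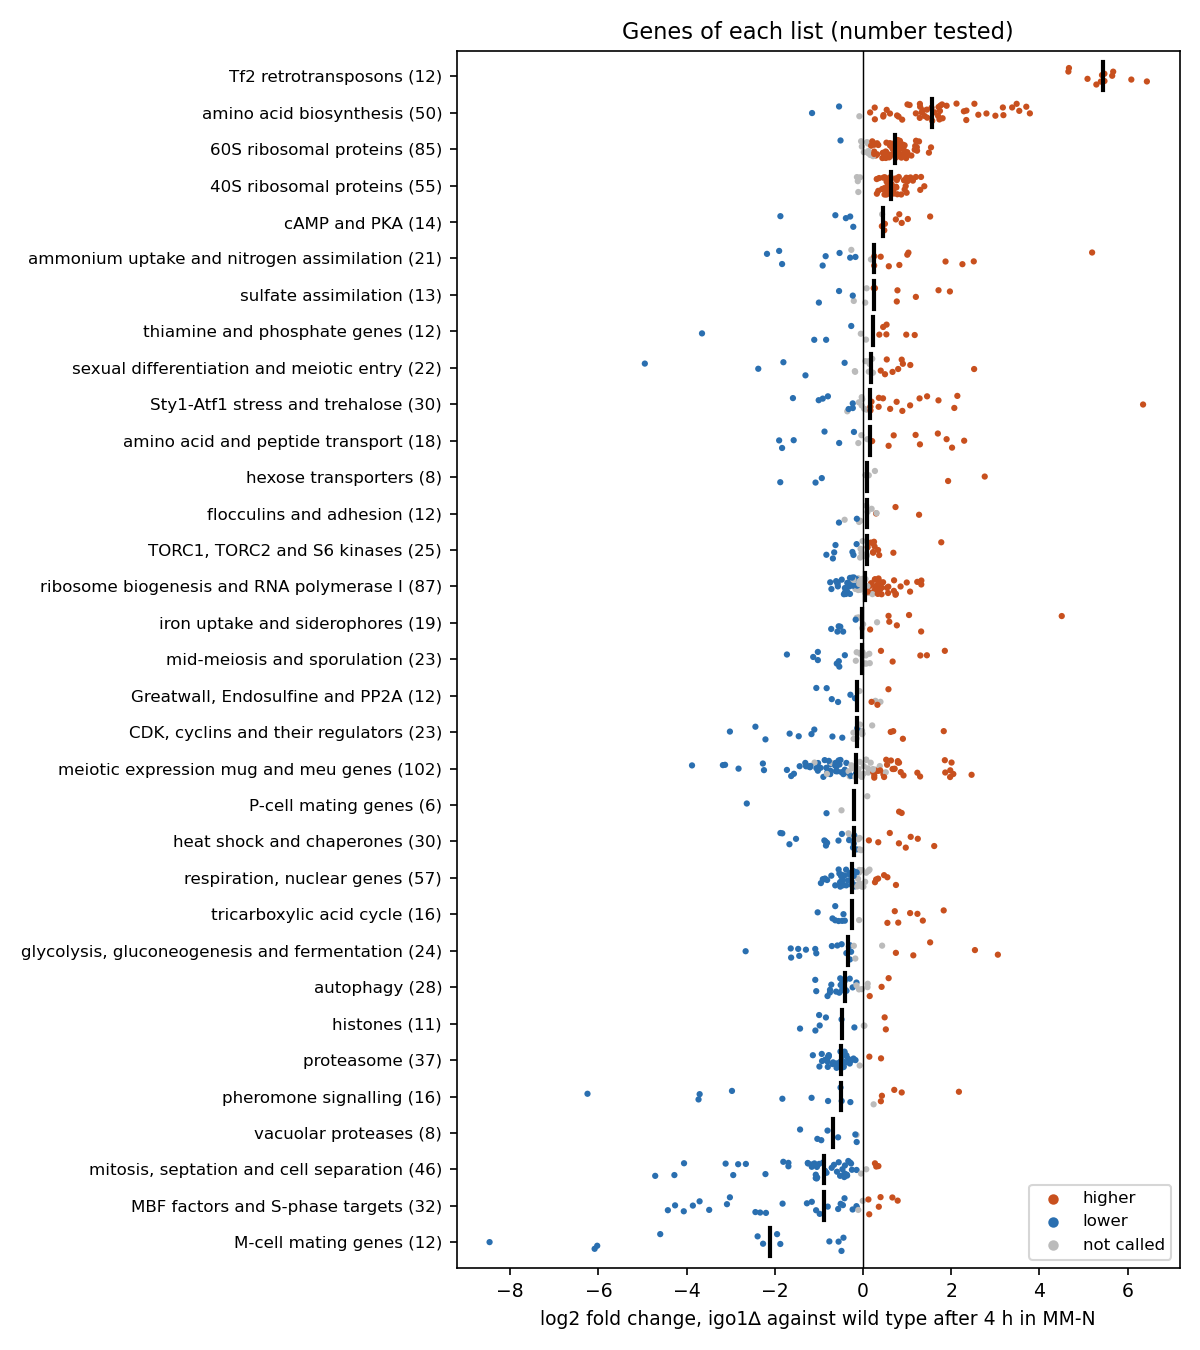
log2 fold change of *igo1*∆ against the wild type after 4 h in MM-N for each gene of each list, with the number tested in brackets and lists in order of their median (black bar). Blue points were called lower, orange points higher and grey points not called; medians run from -2.11 for M-cell mating genes to 5.45 for Tf2 retrotransposons.

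Where the *igo1* and Greatwall mutants differ at 4 h was tested directly. Only 362 genes were called between *igo1*∆ and *ppk18*∆ *cek1*∆ (6.0%), 266 higher and 96 lower in *igo1*∆, and the number rests on the spread shared over all groups: with the libraries of those 2 groups alone 77 were called, and without the second or the third *igo1*∆ library 205 and 188. Without the third *ppk18*∆ *cek1*∆ library, an alternative chosen after seeing the data, 186 were called. The difference exceeded 2-fold in 18 genes, 14 higher and 4 lower in *igo1*∆, the deleted genes included. Amino acid biosynthesis was the list with the most calls, 31 of 50 being higher in *igo1*∆ than in *ppk18*∆ *cek1*∆ and 0 lower, with a median of 0.25 (15 with those 2 groups alone, and 32 and 34 by edgeR and DESeq2). *lys4*, for example, stood at 19825 to 22735 in *ppk18*∆ *cek1*∆ against 29718 to 33308 in *igo1*∆ (0.58). Of the 12 Tf2 copies 8 were higher in *igo1*∆ (6 with those 2 groups alone, and 5 without the third *igo1*∆ library). Of the 32 genes of the MBF list 10 were lower (4 with those 2 groups alone), *cdc18* by 0.78 (129, 147 and 125 against 256, 231 and 205). *eng1* fell by 0.99. For *mei2*, *ppk18*∆ *cek1*∆ stood at 679, 454 and 1765, replicate 3 being above the other two, and the difference from *igo1*∆ was not called (-1.24). No ribosomal protein, proteasome or autophagy gene was called between the mutants in this fit.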

How the data were processed

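RNA of 31 cultures was sequenced after ribosomal RNA depletion with stranded libraries. According to the methods, reads were trimmed with Trimmomatic 0.38, aligned with HISAT2 2.1.0 and counted per gene with featureCounts (Subread 1.6.3), on genome build ASM294v2 per the submitters' processing notes. The strand setting is not given in the sources used here. The deposited values are a signal, the authors' read counts after division by each library's DESeq2 size factor. For the time course, whole reads were recovered from the step size of each library for 100% of entries (tolerance 0.01 reads). The overexpression table was not used here.

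Log2(normalized count + 1) of the 27 time course libraries was modelled by 9 group means using limma 3.58.1 under R 4.3.3 (lmFit, eBayes with trend), for genes with a mean of at least 10 over the libraries. *p*-values were adjusted over all genes tested by the Benjamini-Hochberg method. In the wild type and *igo1*∆ at 4 h the chi-square per gene between replicates was 9.76 to 24.3, so none were copies. On data simulated for this comparison, with 5928 genes of which 200 were changed, limma found 200 with 9 false calls, edgeR 200 with 10 and DESeq2 200 with 18. The simulation gave all genes the same dispersion and changed only genes above a minimum level, by 2-fold or more. It therefore does not test the smaller differences called here, nor the dependence on scaling. The identifiers of 6852 of 7001 genes were found in RefSeq ASM294v3, used for names, gene types, overlaps and promoter sequences, the latter taken by identifier from that assembly's own annotation. The 9 mitochondrial transcripts of a further list were not matched.

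The gene lists and motifs were chosen with earlier results of these data known. Genes named were *igo1*, the 12 coding genes and 3 non-coding RNAs with the largest change each way (called, mean of at least 50, no overlap), members of a list past 1 on the log2 scale, and members of the mating, meiosis, cell cycle, nitrogen and transport lists. Others were chosen after their values were seen. Alternatives were edgeR 4.0.16 and DESeq2 1.42.0 on the recovered reads, other filters, scalings, pseudocounts and sample sets, a replicate block, and leaving out each wild type and *igo1*∆ library at 4 h. Leaving out each *ppk18*∆ *cek1*∆ library at 4 h, for the comparison with that strain, was added after seeing the data. Same-numbered libraries deviated together from their group means, each correlation being above 0.1, between *igo1*∆ and the wild type at 1 h (0.264, 0.170 and 0.193) and between *igo1*∆ at 4 h and in MM (0.182, 0.115 and 0.103), but not between the strains at 4 h (0.044, -0.040 and -0.054), and the labels name no shared batch. Between *igo1*∆ and *ppk18*∆ *cek1*∆ at 4 h the correlations of same-numbered libraries were -0.014, 0.294 and 0.123. Figures were drawn with matplotlib 3.10.9.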

Additional observations from a re-analysis of the deposited data

Results flagged for a closer look

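The strain difference at 4 h differed from that in MM for 3879 genes, by the interaction term of the fit across all libraries (limma, Benjamini-Hochberg adjusted *p* below 0.05). It differed from that at 1 h for 3339 genes by the same kind of term. Among the latter, 279 genes were lower in *igo1*∆ at 1 h and higher at 4 h, and 188 genes were higher at 1 h and lower at 4 h, each call included. The 279 include *hsp9*, *gpx1*, *ctt1* and *inv1*. Of 87 genes of ribosome biogenesis, 13 (14.9%) turned from higher to lower, against 3.11% of all genes tested. From lower to higher turned 3 (3.45%), against 4.62%. Turns were not counted at equal library totals. Groups of 3 libraries were too small for a test of outlying samples.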

How the results depend on the processing

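Between 4230 and 4688 genes were called at 4 h in the 16 alternatives (4319 to 4390 without 1 library), and the calls shared with the fit described above kept their direction in each but quantile normalization (4103 of 4146). The share of called genes that were higher moved from 51.6% to 37.9% at equal library totals. With the replicate number as a block, 4579 genes were called at 4 h, where the numbers do not pair the libraries of the 2 strains, and the only call at 4 h to change among the 345 genes covered by the naming rule was that of *cdr2*, then called (0.21). At 1 h, where they do, the block called 3854 genes, and the interactions from MM and from 1 h called 3932 and 3423. It changed 5, 3 and 7 calls of those 345 genes, and the genes that turned between 1 h and 4 h became 297 and 192. Between *igo1*∆ and *ppk18*∆ *cek1*∆, 77 genes were called with only the groups compared and 410 with the replicate block. When 1 library was left out, those of *ppk18*∆ *cek1*∆ included, 186 to 448 were called. Of the 345 genes, 306 kept their direction and side of the threshold at 4 h in all 16. At equal library totals *mmi1* (-0.12), *pcn1* (-0.04) and *eso1* (-0.06) changed sign, and under quantile normalization *sum3* (-0.06), *ure2* (-0.17), *put2* (-0.01) and *put4* (-0.18) did. The medians of the hexose transporter, TORC, transport, stress, and flocculin and adhesion lists also changed sign under both of these scalings (all between -0.15 and -0.01). The causes were not tested. TR box shares rested on the fold chosen, as given above, and on the same strand alone the core lay in 3.91% of genes lower by more than 1 against 1.28% of all.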
